A study of Sus scrofa with 6 samples.

Results

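The comparison described here is that of porcine oocytes given NMN during heat stress with oocytes heat-stressed without it. Its members are 4 of the 6 samples in the series, 2 heat-stressed and 2 NMN-supplemented, chosen from the treatment in their labels, and the 2 control samples entered the fit and are shown as the reference. It shows which messages differed when NMN was present during the heat. All groups were oocytes of abattoir ovaries matured in culture. Control oocytes were matured without heat stress. Heat-stressed oocytes (HS in the labels) were held for 24 h at a raised temperature at the start of maturation, and NMN-supplemented oocytes (HS + NMN) went through the same heat with NMN in the medium. Each sample was a pool of oocytes. The labels give the stage as GV (germinal vesicle, the immature stage) and the time as 24 h, whereas the methods state that metaphase II oocytes were collected, so the stage is uncertain. No source used here says that the samples of a group were separate collections, and the tests then measure only the spread between these samples, which may be technical.

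NMN, nicotinamide mononucleotide, is a precursor from which cells make NAD, the coenzyme of energy metabolism that sirtuins and PARP enzymes also consume. The fully grown oocyte is nearly silent in transcription, and it matures on messenger RNA stored during growth. During maturation some stored messages are read into protein and others are degraded, and much of that choice lies in the 3′ untranslated region (3′UTR). There a U-rich cytoplasmic polyadenylation element near the polyadenylation hexamer recruits the machinery that lengthens the poly(A) tail. Heat shock proteins are chaperones that keep other proteins folded, and in most cells their genes respond to heat.

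The 3′ ends of 8 transcripts are shown first, because the genes higher and lower with NMN differed in how often such an element lies near the transcript end. Each line gives 30 bases in the transcript's direction, within its last 100 bases, from the longest coding transcript that the RefSeq annotation of Sscrofa11.1 gives for the gene. The first 4 genes were called higher with NMN, and capitals mark the element (TTTTAT or TTTTAAT) and any hexamer (AATAAA or ATTAAA) inside the 30 bases. The last 4 were called lower and held no element in the last 100 bases, and capitals mark the hexamer. The contrast was set by the choice of genes. The first 4 had the largest differences among genes chosen for naming that were called higher and held the element. The last 4 had the largest among those called lower that lacked it, held a hexamer and overlapped no annotated gene. The element was in 42.0% of named genes called higher and 7.07% of those called lower, against 26.0% of all named genes tested.
NUP214 (chr1:271196486-271196515, plus strand): cacaccattgtTTTTAATtctttaattctt
PLK3 (chr6:166528826-166528855, minus strand): tttatggaccacTTTTATttattgacagac
JAGN1 (chr13:66158283-66158312, plus strand): caTTTTAATtgaaaagaacctcAATAAAgt
SLC43A3 (chr2:13514469-13514498, plus strand): tATTAAAtgaTTTTATtagaaaAATAAAgc
SAT2 (chr12:52911725-52911754, minus strand): tgttcagggtgaaaAATAAAtgagaatttc
EMC6 (chr12:49760035-49760064, plus strand): actgttcttcagATTAAAtgaagcgtgaga
ZAR1 (chr8:38391577-38391606, plus strand): acaaagctgtcaAATAAAagcattgcaaaa
IMP3 (chr7:58024466-58024495, plus strand): tctcctaatgccAATAAAtggcttaactac
The element ended 43 bases before the transcript end in NUP214, which has another annotated transcript that ends farther downstream, 78 in PLK3, 38 in JAGN1 and 34 in SLC43A3.

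Levels are in FPKM, a fragment count scaled by the length of the transcript and by the size of the library, which the authors deposited for 29861 genes in each sample. A total of 4713 genes with a mean of at least 1 FPKM over the 6 samples were tested on log2(FPKM + 1), a scale on which the change of low genes is understated, and 3840 of them had a named symbol. A gene was called where limma gave an unadjusted P under 0.05 and both NMN-supplemented samples lay apart from both heat-stressed samples. Over all genes tested 641 were called (13.6%), with 337 higher (7.15%) and 304 lower (6.45%) in NMN-supplemented oocytes. Of the 3840 named genes 519 were called (13.5%), with 299 higher (7.79%) and 220 lower (5.73%). No gene had a Benjamini-Hochberg adjusted P under 0.05 in limma, and the smallest among named genes was 0.0969, so each call below is a call at the unadjusted threshold. Without overlap alone, 1515 named genes were higher (39.5%) and 632 lower (16.5%). An exact permutation test of 2 samples against 2 cannot give a two-sided P below 0.333 for a single gene.

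The genes called lower differed by more than the genes called higher. They were also lower in level, with a median of the mean FPKM of 2.9 against 5.56. The part of level in the size of the called differences was not tested. The median log2 difference, NMN-supplemented minus heat-stressed, was -0.63 over the named genes called lower and 0.39 over those called higher, and 0.09 over all 3840 named genes tested. A mean FPKM at least 2-fold lower with NMN was seen for 108 of the called named genes and one at least 2-fold higher for 9. The plot gives the level and the difference of each named gene, and the differences were not compared within ranges of level. Of the 220 genes called lower, 210 (95.5%) were also below both control samples in both NMN-supplemented samples, against 25.7% of all named genes tested. Of the 299 called higher, 262 (87.6%) were above both control samples, against 47.1% of all named genes tested. Most of the levels called with NMN thus lay outside the range of the control samples. The calls rest on the same NMN-supplemented values, so shares above those of all named genes are in part set by that choice.

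**Figure D1:**
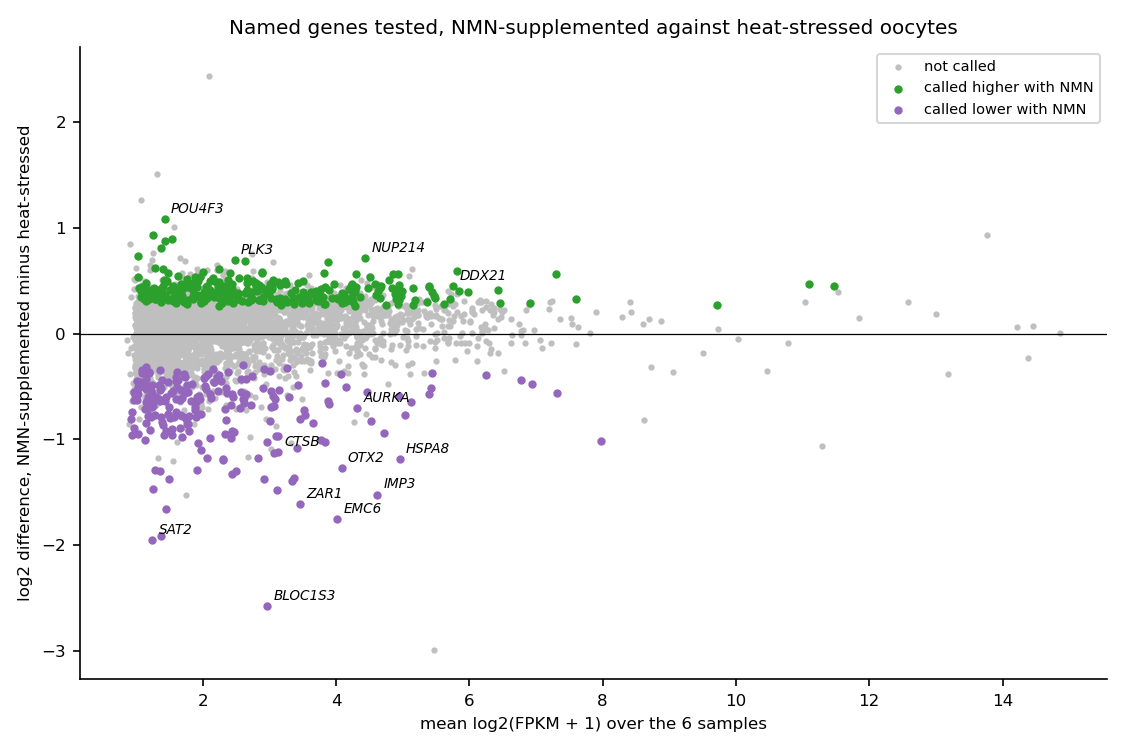
Each point is 1 of the 3840 named genes tested. The horizontal axis is the mean log2(FPKM + 1) over the 6 samples and the vertical axis the log2 difference, NMN-supplemented minus heat-stressed. The 220 genes called lower (purple) reach from just below 0 to the value of BLOC1S3 (-2.58), and the 299 called higher (green) stay near 1 or below, while grey points were not called whatever their difference.

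Several values of the whole libraries moved with the groups or stood apart in 1 of them. Mitochondrially encoded genes held 62.4% and 71.6% of the summed FPKM of heat-stressed samples, 74.2% and 74.7% of that of NMN-supplemented samples and 66.4% and 61.7% of that of controls. In heat-stressed sample 1, LOC100513953 alone held 13.9% of the summed FPKM, and it was listed at 0 in the other samples. Without that sample 117 named genes were called higher and 171 lower, against 60 and 163 without NMN-supplemented sample 1, 91 and 182 without NMN-supplemented sample 2 and 254 and 260 without heat-stressed sample 2. The number of genes called higher thus moved more with the samples kept than that of genes called lower. The part of these library values in the calls was not tested beyond the scalings given in the closing section. Oocyte markers were present throughout, with 13 of 15 tested, and their summed FPKM was 3540 and 3740 in control, 3490 in both heat-stressed and 3090 and 3340 in NMN-supplemented samples. A single marker reached 1940 FPKM, a large part of such a sum. Of the 13 tested, 1 was called higher and 2 lower with NMN. Of 20 cumulus and granulosa cell markers in the table none reached the minimum, their summed FPKM was 0.699 to 2.01 over the heat-stressed and NMN-supplemented samples, and AMH was listed at 0 in all of them. None of the markers of theca and stromal, blood and immune or endothelial cells was tested either, and COL1A1, COL3A1, VWF and CDH5 were listed at 0. In pooled oocytes, fewer cells with a message and less message per cell cannot be told apart.

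To see which messages differed most, the 12 named genes with the largest called difference in each direction were examined. BLOC1S3, a subunit of the BLOC-1 complex that forms lysosome-related organelles, had the largest called difference of a named gene (chromosome 6, 51590497 to 51591222, 2 exons). Its level was 17.8 and 13.5 FPKM in heat-stressed and 1.08 and 2.66 FPKM in NMN-supplemented oocytes, beside 15 and 5.76 FPKM in control. Both samples with NMN were below every other sample, with a log2 difference of -2.58 ± 0.47 (SE) and an adjusted P of 0.222 in limma, and a mean 8.36-fold lower. EMC6, a subunit of the complex that inserts membrane proteins into the endoplasmic reticulum, was at 25.4 and 12.2 FPKM with heat stress and at 3.6 and 5.63 FPKM with NMN, a log2 difference of -1.76 ± 0.38 (SE). Control oocytes held more of it than either group (33.9 and 47.1 FPKM). PIGC, an enzyme of the first step of glycosylphosphatidylinositol anchor synthesis, was lower by a factor of 3.41, with 13.3 and 8.61 FPKM in heat-stressed and 2.77 and 3.65 FPKM in NMN-supplemented samples. GPR32, a receptor for resolvins, was at 6.17 and 13.5 FPKM in heat-stressed samples, which differed from each other by more than a factor of 2, and at 2.91 and 2.94 FPKM with NMN.

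SAT2 and SAT1 belong to 1 family of acetyltransferases, of which SAT1 is the rate-limiting enzyme of polyamine breakdown, and they were called in opposite directions. SAT2 was at 4.43 and 2.65 FPKM in heat-stressed samples and at 0.319 FPKM and listed at 0 in the NMN-supplemented ones (log2 difference -1.96 ± 0.37 (SE)). SAT1 was at 0.698 and 0.593 FPKM in heat-stressed and 2.09 and 2.19 FPKM in NMN-supplemented samples (log2 difference 0.93 ± 0.15 (SE)). The level of SAT1 with NMN was near that of control (1.98 and 1.34 FPKM), while that of SAT2 was below it (0.847 and 2.62 FPKM). Both calls held under every alternative tried and with any 1 sample left out, which was the case for 23 of the 107 called genes chosen for naming.

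LIPT1, which attaches lipoate to mitochondrial dehydrogenases, and METTL12, a methyltransferase of mitochondrial citrate synthase, were each listed at 0 in NMN-supplemented sample 1. LIPT1 was at 2.42 and 3.5 FPKM in heat-stressed oocytes and at 0.543 FPKM in the other NMN-supplemented sample, and METTL12 at 1.64 and 3.03 and at 0.397 FPKM. LIPT1 lies in a listed locus with other genes and overlaps LOC106508550 on the same strand. RPP14, a subunit of ribonuclease P, was at 3.3 and 3.16 FPKM with heat stress and at 0.247 and 0.00355 FPKM with NMN, the smallest adjusted P of a named gene in limma (0.0969). It too overlaps another annotated gene on its strand, LOC100515579, and the fragments of the pair cannot be told apart. Of the 107 called genes chosen for naming 24 overlap another annotated gene. POLR1D, TUBB2B and UBE2V1, described below, also do so on the same strand. The other genes of this set were IMP3, TUBB4B and MEA1, with MEA1 at 1.42 and 3.81 FPKM in heat-stressed and 0.365 and 0.27 FPKM in NMN-supplemented samples.

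Among the genes higher with NMN, POU4F3 had the largest called difference, and the only one above 1 on the log2 scale among named genes. This transcription factor of the POU family was at 1.34 and 0.408 FPKM in heat-stressed and 2.45 and 3.3 FPKM in NMN-supplemented oocytes (log2 difference 1.09 ± 0.26 (SE)). POU3F4, of the same family, was at 1.66 and 1.15 and 3.41 and 3.37 FPKM. Both were low genes, under 4 FPKM in every sample. NUP214, a nucleoporin on the cytoplasmic face of the nuclear pore, was the highest of the set (chromosome 1, 271103838 to 271210292, 32 exons), with 16.1 and 19.6 FPKM in heat-stressed and 29.7 and 29.8 FPKM in NMN-supplemented oocytes. Its control level (18.3 and 14.8 FPKM) overlapped that of the heat-stressed samples, and its log2 difference of 0.71 ± 0.15 (SE) held under every alternative tried. TDRD6, a Tudor domain protein of germ granules, was at 12.2 and 12.8 FPKM and at 20.3 and 21 FPKM, again above both other groups.

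ADRA2B, an adrenergic receptor, was at 1.09 and 0.81 FPKM in heat-stressed and 2.73 and 2.51 FPKM in NMN-supplemented samples, a mean 2.76-fold higher and near that of control (2.76 and 2.31 FPKM). S1PR1, a receptor for sphingosine 1-phosphate, was at 0.979 and 0.862 and 1.88 and 2.03 FPKM. IL28B, an interferon lambda, was at 3.22 and 5.58 and 7.68 and 7.32 FPKM, with heat-stressed samples that differed from each other by more than the gap to the lower NMN-supplemented one. PIAS3, a SUMO ligase that inhibits STAT3, was at 0.883 and 1.4 FPKM in heat-stressed and 2.59 and 2.86 FPKM in NMN-supplemented samples (log2 difference 0.81 ± 0.16 (SE)), and it overlaps NUDT17 on the other strand. ROMO1, a small protein of the mitochondrial inner membrane that modulates reactive oxygen species, was at 0.269 and 0.605 and 1.02 and 1.79 FPKM, and JAGN1, a protein of the endoplasmic reticulum, at 2.21 and 3.07 and 4.29 and 4.78 FPKM.

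**Figure D2:**
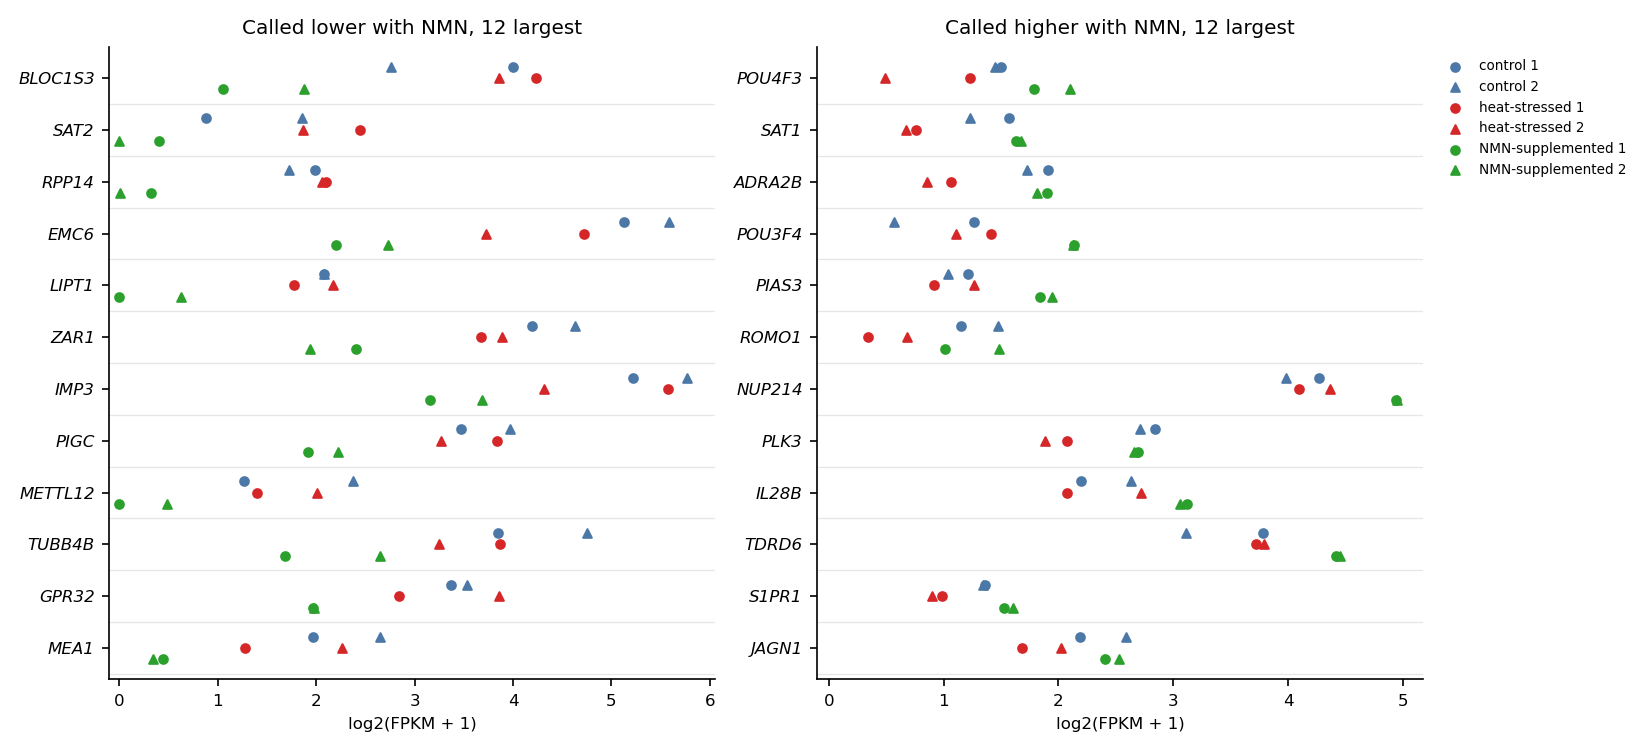
The horizontal axis is log2(FPKM + 1) in each of the 6 samples, with circles for sample 1 and triangles for sample 2 of a group. Genes called lower with NMN are on the left and genes called higher on the right, 12 each in the order of their difference. The 2 NMN-supplemented samples (green) lie to 1 side of the 2 heat-stressed samples (red) for each gene, as the call requires, and BLOC1S3, SAT2, EMC6 and ZAR1 are below the controls (blue) as well.

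Functions were then examined with 34 gene lists, described by the number of members called. Because the lists were chosen with earlier results known, they were not tested as sets, and each is read beside the share of all named genes (7.79% higher and 5.73% lower). The number called lower exceeded the number called higher in 12 lists. The maternal list had the highest share called lower (9 of 38, 23.7%), followed by lysosome genes (4 of 21) and mitochondrial dynamics, import and DNA maintenance (6 of 34). Mediator subunits had the highest share called higher (4 of 16).

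**Figure D3:**
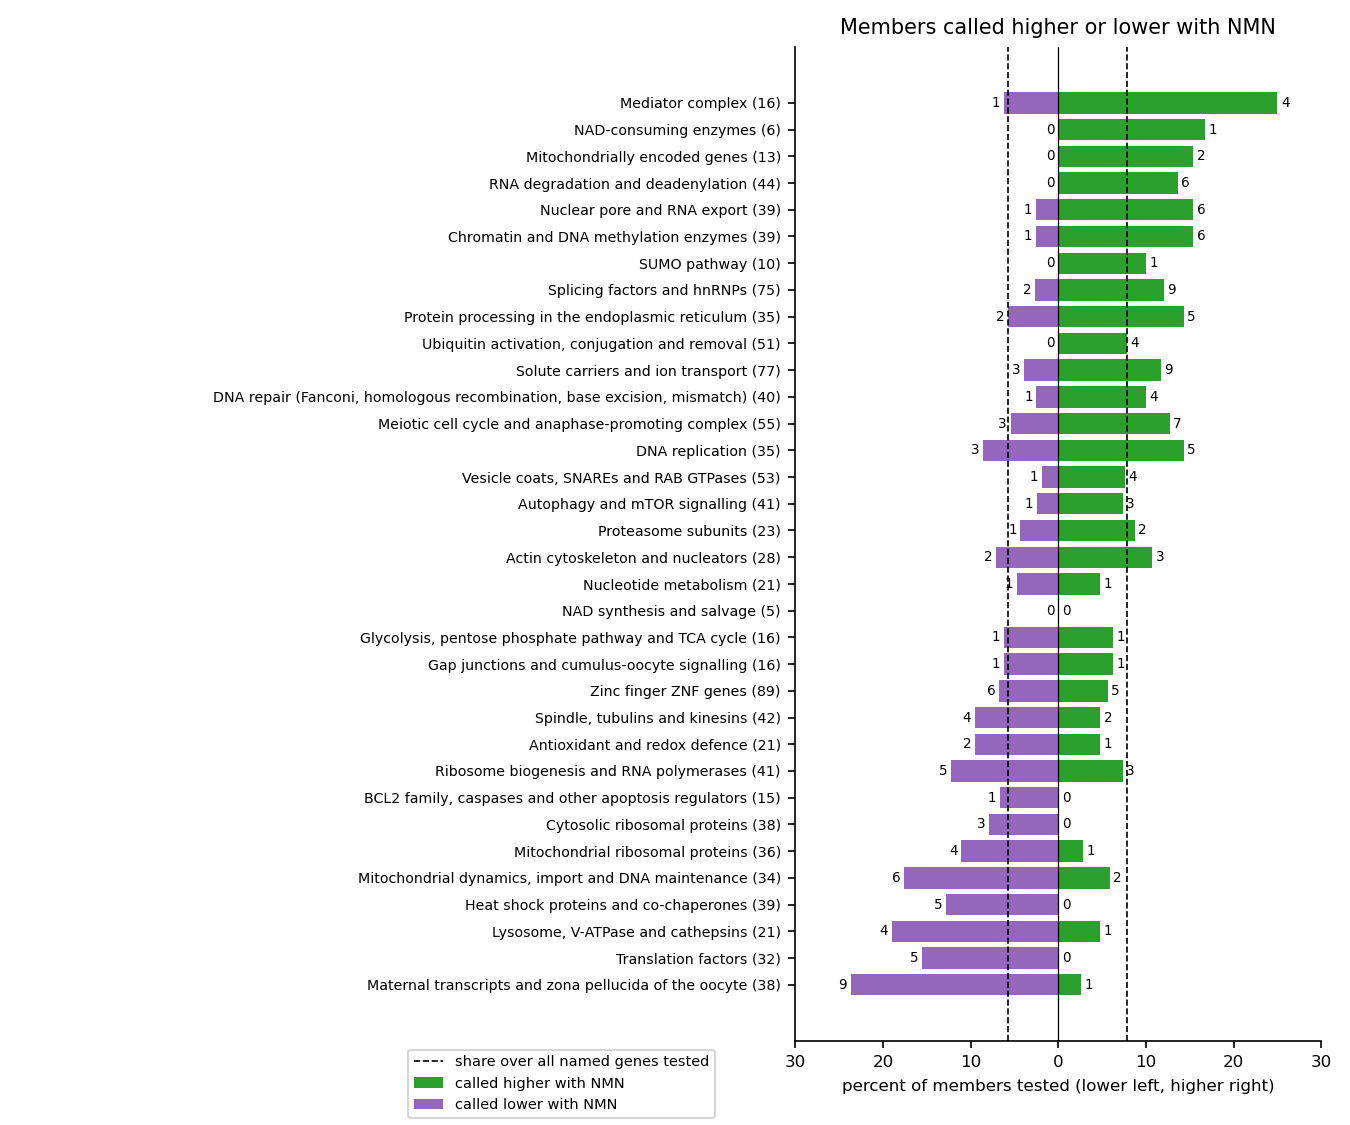
Bars give the percent of tested members called higher (to the right) and lower (to the left) with NMN in each of 34 gene lists, with the number called at the end of the bar and the number tested in parentheses. Dashed lines mark the shares over all named genes tested, 7.79% higher and 5.73% lower. The maternal list, with 9 called lower and 1 higher, and the Mediator list, with 4 higher and 1 lower, stand at opposite ends.

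Maternal transcripts, the messages that the egg stores for meiosis and the first cleavages, were called lower more often than the named genes as a whole. Of 38 tested, 9 were called lower (23.7%, against 5.73%) and 1 higher, 30 had a difference below 0, and the list's median log2 difference was -0.15 beside 0.09 over named genes. ZAR1, an RNA-binding protein of oocytes named for the zygotic arrest without it, was the largest (chromosome 8, 38386520 to 38391618, 4 exons). It was at 17.3 and 23.8 FPKM in control, 11.8 and 13.8 FPKM in heat-stressed and 4.3 and 2.84 FPKM in NMN-supplemented oocytes, and the 3 groups did not overlap. The log2 difference was -1.61 ± 0.23 (SE) with an adjusted P of 0.207 in limma, and the call held under every alternative tried. OTX2, a homeobox transcription factor, was as high in heat-stressed (23.1 and 20.1 FPKM) as in control samples (20.9 and 23.5 FPKM) and at 7.33 and 9.44 FPKM with NMN (log2 difference -1.27 ± 0.16 (SE)). YBX2, which packages stored messages in germ cells, was at 4.7 and 4.71 FPKM in heat-stressed and 1.79 and 2.13 FPKM in NMN-supplemented oocytes. NLRP9 was at 11 and 13.2 and 4.32 and 6.16 FPKM, and its relatives NLRP2 and NLRP7 had log2 differences of -0.71 ± 0.15 (SE) and -0.57 ± 0.14 (SE). PADI6, a protein of the cytoplasmic lattices (-0.93 ± 0.24 (SE)), NPM2, an egg histone chaperone (-0.74 ± 0.16 (SE)), and DPPA5, a pluripotency marker (-0.44 ± 0.15 (SE)), completed the 9. The member called higher was WEE2, the oocyte kinase that holds CDK1 inactive, at 201 and 198 FPKM in heat-stressed and 251 and 249 FPKM in NMN-supplemented oocytes. Without heat-stressed sample 1 the counts were 10 lower and 0 higher. Scaling the samples to 1 sum of nonmitochondrial FPKM, which moved the median of named genes to 0.371, left 2 called lower and turned the list's median to 0.196, still below that of named genes.

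With all samples kept, heat shock protein and co-chaperone genes were called in only 1 direction, with 5 of 39 lower (12.8%) and 0 higher. When either heat-stressed sample was left out, calls went in both directions. HSPA8, the constitutive HSP70, was at 37.7 and 39 FPKM in heat-stressed and 15 and 17.6 FPKM in NMN-supplemented samples, beside 40.1 and 46.3 FPKM in control. Heat-stressed and control levels were close, and the difference of -1.19 ± 0.13 (SE) on the log2 scale had an adjusted P of 0.192 in limma. HSP90AA1, an HSP90, was at 60.0 and 57.5 FPKM in control, 42.6 and 41.3 FPKM with heat stress and 23.5 and 33.1 FPKM with NMN, in descending order without overlap. DNAJB1, an HSP40 that works with HSP70, took the same order, with 27.1 and 25.4, then 13.4 and 14.7, then 10.9 and 10.2 FPKM. DNAJC14 (-0.39 ± 0.14 (SE)) and HSPH1, an HSP110 (-0.49 ± 0.16 (SE)), were the other 2, and of the 5 only HSPH1 was higher in both heat-stressed samples than in both controls. The median over the 39 genes was -0.04, and most members were near 0. Under the scaling to 1 sum of nonmitochondrial FPKM none of the 39 was called and the median was 0.233, and without heat-stressed sample 1 the counts were 3 lower and 1 higher. With either NMN-supplemented sample left out, 2 were called lower and 0 higher.

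Protein processing in the endoplasmic reticulum gave calls in both directions, 5 of 35 higher and 2 lower. CALR, the calcium-binding chaperone calreticulin, was at 5.73 and 9.48 FPKM with heat stress and 3.65 and 1.98 FPKM with NMN (log2 difference -1.18 ± 0.32 (SE)). ATF4, a transcription factor of the stress response, was at 21.8 and 21.1 FPKM in control, 12.5 and 15.5 FPKM in heat-stressed and 7.99 and 9.2 FPKM in NMN-supplemented samples. In the other direction ERN1, the stress sensor IRE1, was at 2.48 and 2.52 and 3.7 and 3.85 FPKM, and UFD1, EDEM1 and SEC23A were also called higher. Without heat-stressed sample 1 the list had 0 higher and 2 lower, and without NMN-supplemented sample 1 it had 1 and 2. Of 51 genes that activate, conjugate or remove ubiquitin 4 were higher and 0 lower, among them USP21 (0.47 ± 0.14 (SE)), UBE2D1 (0.42 ± 0.14 (SE)) and UBE2V1 (0.26 ± 0.10 (SE)). The call of UBE2V1 held under 4 of 18 alternatives, and with 1 heat-stressed or NMN-supplemented sample left out the list had 0 to 2 higher and 0 or 1 lower. Proteasome subunits PSMD3 (0.30 ± 0.10 (SE)) and PSMD11 (0.31 ± 0.11 (SE)) were called higher and the assembly chaperone PSMG3 (-0.61 ± 0.23 (SE)) lower, of 23 tested, and none was called higher with any 1 of the 4 samples left out.

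Genes of the lysosome were called lower in 4 of 21 cases and higher in 1. CTSB, the protease cathepsin B, was at 12.2 and 14.3 FPKM in control, 10.6 and 7.83 FPKM in heat-stressed and 3.49 and 3.82 FPKM in NMN-supplemented oocytes, a mean 2.53-fold lower with NMN. The proton pump subunits ATP6V1G1 and ATP6V0C had log2 differences of -0.99 ± 0.20 (SE) and -0.55 ± 0.12 (SE), and MANBA, a lysosomal mannosidase, was the other. Under the scaling to 1 sum of nonmitochondrial FPKM none of the 21 was called. A further pump subunit, ATP6V0A2, was called higher (0.36 ± 0.12 (SE)). GABARAP, which builds the autophagosome membrane, was at 5.53 and 4.37 FPKM in heat-stressed and 2.22 and 1.08 FPKM in NMN-supplemented oocytes (-1.19 ± 0.23 (SE)). The autophagy genes ATG2B (0.43 ± 0.12 (SE)), ATG16L1 (0.40 ± 0.14 (SE)) and NBR1 (0.34 ± 0.12 (SE)) were called higher, of 41 tested, but none of the autophagy list without NMN-supplemented sample 1.

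The genes of protein synthesis called with NMN were nearly all lower. Of 32 translation factors 5 were called lower and 0 higher, with 1 lower without NMN-supplemented sample 1 and 3 without any other 1 of the 4 samples. The elongation factor EEF1A1, the highest of them, was at 107 and 106 FPKM in control, 74.9 and 70.1 FPKM with heat stress and 52.9 and 57 FPKM with NMN, and EEF2, which moves the ribosome along the message, was at 2.66 and 3.82 and 1.29 and 1.69 FPKM. EEF1B2, EIF3J and YBX2 were the others, and YBX2, which packages stored messages, is also counted in the maternal list. The median over the translation factors was -0.004. It turned above 0 under quantile normalization (0.018), under the scaling to 1 sum of nonmitochondrial FPKM (0.296) and without heat-stressed sample 1 (0.0317). Of 38 cytosolic ribosomal protein genes 3 were called lower, near the share of all named genes, and 0 higher. Of the 38, 28 were below 0, and the median was -0.26. With 1 heat-stressed or NMN-supplemented sample left out, the median ranged from -0.269 to -0.168. Some members were then called higher in each case except without NMN-supplemented sample 1. RPS25 was at 2.11 and 3.53 FPKM in heat-stressed and 1.16 and 0.696 FPKM in NMN-supplemented samples, and RPS24 (-0.67 ± 0.17 (SE)) and RPL37 (-0.59 ± 0.12 (SE)) were the other 2. Of 36 mitochondrial ribosomal protein genes 4 were lower, among them MRPL36 (-0.92 ± 0.20 (SE)) and MRPL37 (-0.84 ± 0.15 (SE)), and MRPL50 was higher, with a median of -0.20. Both medians turned above 0 under the scaling to 1 sum of nonmitochondrial FPKM (0.0402 and 0.0797), where only 1 gene of the 3 lists was called lower and 1 higher, and the latter also without heat-stressed sample 1 (0.0165). Ribosomal protein genes have many processed copies in the genome, and how the authors divided fragments between copies is not given in the sources used here.

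Ribosome biogenesis gave 5 lower and 3 higher of 41, and 4 lower and 0 higher without heat-stressed sample 1. IMP3, a component of the U3 small nucleolar particle, was at 46.8 and 18.9 FPKM in heat-stressed samples, far apart from each other, and at 7.93 and 11.9 FPKM with NMN. POLR1D, shared by RNA polymerases I and III, was at 27 and 20.9 and 11.9 and 14 FPKM, and RSL1D1 at 2.53 and 2.21 and 0.451 and 1.06 FPKM. DDX21, a nucleolar RNA helicase, moved the other way, with 41 and 35.5 FPKM in control, 50.4 and 57 FPKM in heat-stressed and 76.3 and 71.2 FPKM in NMN-supplemented oocytes. POLR2A, the large subunit of RNA polymerase II, was also called higher (0.57 ± 0.21 (SE)).

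Genes that handle messenger RNA were called higher more often than lower over the 4 samples, in numbers that fell with most samples left out. Of 39 genes of the nuclear pore and RNA export 6 were higher (15.4%) and 1 lower. NUP153 was at 2.83 and 3.67 FPKM in heat-stressed and 4.98 and 4.49 FPKM in NMN-supplemented samples, NUP133 at 2.19 and 3.31 and 4.44 and 4.05 FPKM, and CASC3, a core protein of the exon junction, at 14.8 and 16.8 and 19.8 and 23.3 FPKM. NXT1, an export adaptor, was the 1 lower gene and was listed at 0 in NMN-supplemented sample 1. Of 44 genes of RNA degradation and deadenylation 6 were higher (13.6%) and 0 lower. They were CNOT3 of the CCR4-NOT deadenylase (0.53 ± 0.20 (SE)), PAN3 of the other main deadenylase (0.33 ± 0.11 (SE)), the decapping enzyme DCP2 (0.45 ± 0.17 (SE)), its scaffold EDC4 (0.50 ± 0.13 (SE)) and the poly(A)-binding proteins PABPC4 (0.32 ± 0.12 (SE)) and PABPN1L (0.34 ± 0.12 (SE)). EDC4 lay at 1.07 and 1.41 FPKM in heat-stressed and 2.26 and 2.04 FPKM in NMN-supplemented samples. Without heat-stressed sample 1 the counts were 3 higher and 0 lower for RNA export and 0 higher and 2 lower for RNA degradation. Without NMN-supplemented samples 1 and 2 in turn they were 2 higher and 1 lower and 1 and 1 for RNA export, and 0 and 0 and 1 and 1 for RNA degradation. Of 75 splicing factors 9 were higher and 2 lower, 3 and 2 without heat-stressed sample 1 and 1 and 1 without NMN-supplemented sample 1. SRPK1, a kinase of splicing factors, was at 6.84 and 6.94 FPKM in control, 10.7 and 10.7 FPKM with heat stress and 14 and 13.5 FPKM with NMN.

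**Figure D4:**
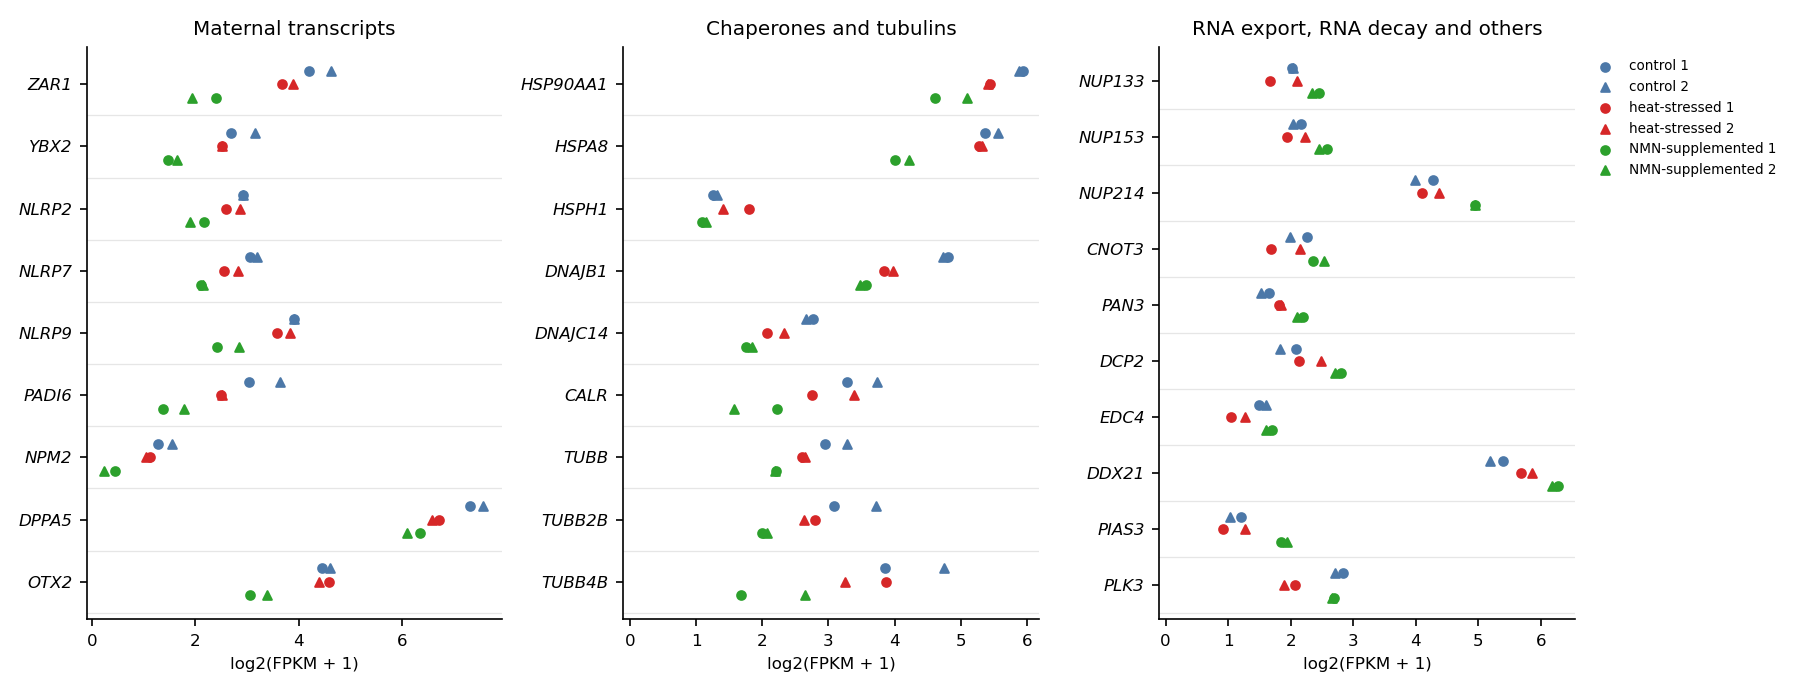
The horizontal axis is log2(FPKM + 1) in each sample, with circles for sample 1 and triangles for sample 2 of a group. The left panel holds the 9 maternal transcripts called lower with NMN, the middle panel chaperones and tubulins called lower, and the right panel genes called higher. ZAR1, HSP90AA1 and DNAJB1 descend from control (blue) over heat-stressed (red) to NMN-supplemented (green), whereas DDX21 ascends in that order.

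Regulators of transcription and chromatin gave calls in both directions. Of 16 Mediator subunits 4 were called higher, MED14 (0.36 ± 0.13 (SE)), MED15 (0.39 ± 0.12 (SE)), MED25 (0.46 ± 0.16 (SE)) and MED13 (0.39 ± 0.15 (SE)), and MED11 lower (-0.50 ± 0.20 (SE)), but without heat-stressed sample 1 or NMN-supplemented sample 2 none was called higher. Of 39 chromatin and DNA methylation enzymes 6 were higher and 1 lower, 1 and 1 without heat-stressed sample 1 and 1 and 2 without NMN-supplemented sample 2. UHRF1, which guides maintenance methylation of DNA, was at 6.75 and 6.2 FPKM in heat-stressed and 8.5 and 9.02 FPKM in NMN-supplemented oocytes. SMARCA5, a chromatin remodeller, kept its call under 10 of 18 alternatives. It was at 6.23 and 5.96 FPKM in control, 9.82 and 10.5 FPKM in heat-stressed and 13.1 and 12.4 FPKM in NMN-supplemented oocytes. ASH2L, a subunit of histone methyltransferases, went down in that order, from 4.86 and 4.83 to 2.78 and 3.46 and 2.04 and 2.26 FPKM. Of 89 ZNF genes 5 were called higher and 6 lower, 2 and 4 without heat-stressed sample 1.

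Genes of the meiotic cell cycle were called higher in 7 of 55 cases and lower in 3. PLK3, a polo-like kinase, was at 6.17 and 5.53 FPKM in control, 3.21 and 2.7 FPKM in heat-stressed and 5.47 and 5.3 FPKM in NMN-supplemented oocytes, so that the level with NMN lay just below the controls. Its log2 difference was 0.69 ± 0.12 (SE) with an adjusted P of 0.222 in limma. Its 3′ end overlaps TCTEX1D4 on the other strand, and since no source used here states that strand was kept, the fragments of the pair cannot be told apart. CDKN1C, an inhibitor of cyclin-dependent kinases, was at 3.35 and 3.9 FPKM in control, 0.86 and 0.686 FPKM with heat stress and 1.8 and 1.48 FPKM with NMN. CCNA2 (0.34 ± 0.13 (SE)), CDC20, the activator of the anaphase-promoting complex (0.50 ± 0.17 (SE)), its inhibitor FBXO5 (0.36 ± 0.13 (SE)), YWHAG (0.33 ± 0.12 (SE)) and WEE2 were also higher. On the lower side AURKA, the kinase of the spindle poles, was at 31.6 and 39.1 FPKM in control, 18.7 and 17 FPKM in heat-stressed and 9.75 and 11.4 FPKM in NMN-supplemented samples, and it overlaps CSTF1 on the other strand. SFN, 14-3-3 sigma, was at 9.9 and 12.2 and 5.04 and 2.6 FPKM, and ANAPC11, a subunit of the anaphase-promoting complex, at 2.71 and 2.63 and 1.7 and 1.09 FPKM. Without heat-stressed sample 1, and likewise without NMN-supplemented sample 1, the list had 2 higher and 3 lower, and under quantile normalization 4 and 4.

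Genes of the spindle gave 4 lower and 2 higher of 42, and 3 of the 4 were beta-tubulins. Without heat-stressed sample 1 or NMN-supplemented sample 1 none of the 42 was called lower, so the 3 tubulin calls were lost there. TUBB was at 5.09 and 5.28 FPKM in heat-stressed and 3.64 and 3.56 FPKM in NMN-supplemented oocytes, TUBB2B at 5.97 and 5.17 and 2.98 and 3.22 FPKM and TUBB4B at 13.6 and 8.53 and 2.22 and 5.28 FPKM. Control samples held more of TUBB (6.72 and 8.7 FPKM) and TUBB2B (7.47 and 12.2 FPKM) than either group, and of TUBB4B in control sample 2 (13.4 and 25.9 FPKM). Beta-tubulin genes are close copies of each other, TUBB2B overlaps LOC110261696 on the same strand, and TUBB4B lies in a listed locus with 3 other genes. TACC3 (0.29 ± 0.10 (SE)) and CKAP5 (0.33 ± 0.13 (SE)), which act together on spindle microtubules, were called higher. For actin, the nucleation factors ACTR2 (0.41 ± 0.11 (SE)) and SPIRE1 (0.33 ± 0.11 (SE)) and the phosphatase SSH2 (0.36 ± 0.14 (SE)) were higher, and ACTB (-0.37 ± 0.12 (SE)) and NCKAP1L (-0.51 ± 0.13 (SE)) lower, of 28 tested, but with 1 heat-stressed or NMN-supplemented sample left out at most 1 of the 28 was called higher.

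NAD metabolism, the pathway that NMN feeds, showed few calls. Of 29 genes of NAD synthesis and salvage 5 were tested and 0 called, at a median log2 difference of 0.12. Of 26 genes of enzymes that consume NAD 6 were tested, and PARP14, an ADP-ribosyltransferase, was the 1 called, at 2.68 and 3.5 FPKM in heat-stressed and 4.44 and 4.59 FPKM in NMN-supplemented oocytes. Its call was lost without heat-stressed sample 1 and without either NMN-supplemented sample. In central carbon metabolism IDH3A, a subunit of the isocitrate dehydrogenase that reduces NAD, was higher (0.37 ± 0.11 (SE)) and TKT, transketolase, lower (-0.71 ± 0.17 (SE)), of 16 tested. Most genes of these 3 lists were below the minimum level, and a change in them was not detectable here.

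Mitochondrial genes of both genomes were called, and their counts are read beside 7.79% higher and 5.73% lower over all named genes. Of 13 mitochondrially encoded genes ND1 and ND6, subunits of complex I, were called higher and 0 lower, with ND1 at 2316 and 1931 FPKM in heat-stressed and 2990 and 2862 FPKM in NMN-supplemented samples. Both calls were lost under quantile normalization and without either NMN-supplemented sample. Of 34 nuclear genes of mitochondrial dynamics, import and DNA maintenance 6 were called lower and 2 higher, although 21 had a difference above 0 and the median was 0.07, beside 0.185 for the mitochondrially encoded genes. The 6 and 2 became 3 and 1 without heat-stressed sample 1, 3 and 0 without NMN-supplemented sample 1 and 0 and 0 under the scaling to 1 sum of nonmitochondrial FPKM. PHB2, a prohibitin of the inner membrane, was at 5.8 and 6.15 FPKM in control, 4.26 and 4.16 FPKM in heat-stressed and 2.49 and 2.82 FPKM in NMN-supplemented oocytes, and the elongation factor TUFM at 2.44 and 3.42, 1.15 and 1.08 and 0.422 and 0.545 FPKM. TIMM10B (-0.67 ± 0.16 (SE)), SLC25A6 (-0.64 ± 0.20 (SE)), NIPSNAP1 (-0.68 ± 0.22 (SE)) and MTERF2 were the other 4. GRPEL1 (0.31 ± 0.12 (SE)) and GRPEL2 (0.37 ± 0.12 (SE)), cochaperones of mitochondrial HSP70, were the 2 called higher.

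Of 21 antioxidant genes 1 was called higher (4.76%) and 2 lower (9.52%), against 7.79% and 5.73% of all named genes. GCLC, the limiting enzyme of glutathione synthesis, was higher, at 7.82 and 7.93 FPKM in heat-stressed and 9.78 and 10.6 FPKM in NMN-supplemented oocytes. Its call was lost under quantile normalization, under the scaling to 1 sum of nonmitochondrial FPKM and with any 1 of these 4 samples left out. PRDX2, a peroxidase that overlaps RNASEH2A, and GLRX5, a glutaredoxin of mitochondria, were lower (-0.97 ± 0.26 (SE) and -0.61 ± 0.18 (SE)), and the other 18 of 21 were not called. Among 15 regulators of apoptosis only STK17A, a death-associated kinase, was called, at 1.75 and 1.22 FPKM with heat stress and 0.478 and 0.788 FPKM with NMN.

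DNA repair genes were called higher in 4 of 40 cases and lower in 1, but higher in 0 without NMN-supplemented sample 1 and in 1 without NMN-supplemented sample 2. PALB2, the partner of BRCA2, was at 18.5 and 14.1 FPKM in control, 21.1 and 25.2 FPKM in heat-stressed and 34 and 30.6 FPKM in NMN-supplemented oocytes, WDR48 had a log2 difference of 0.42 ± 0.13 (SE), and ERCC4 and LIG4 were the other 2. The call of PALB2 held under 11 of 18 alternatives. LIG3, a DNA ligase of base excision repair, was lower, from 3.61 and 3.67 FPKM in control to 2.26 and 2.58 with heat stress and 1.3 and 1.57 with NMN. In DNA replication MCM2 (0.39 ± 0.12 (SE)), MCM4 (0.44 ± 0.12 (SE)), CDC7 (0.43 ± 0.12 (SE)), RFC4 and TOP2B were higher, and POLE4 (-0.60 ± 0.15 (SE)), POLE3 (-0.59 ± 0.20 (SE)) and GINS2 (-0.77 ± 0.22 (SE)) lower, of 35 tested, with 1 higher and 2 lower without NMN-supplemented sample 1. Of 77 solute carriers and ion transporters 9 were called higher and 3 lower, which became 4 and 2 without heat-stressed sample 1 and 1 and 1 without NMN-supplemented sample 1. SLC43A3, a purine base transporter, was at 5.07 and 5.29 FPKM in heat-stressed and 9.05 and 7.52 FPKM in NMN-supplemented oocytes, and its call held under every alternative, and SLC25A11, the oxoglutarate carrier, was at 2.16 and 2.18 and 0.576 and 0.784 FPKM. In vesicle transport ARCN1 (0.35 ± 0.12 (SE)), STX3 (0.30 ± 0.12 (SE)), RAB33B and CHMP5 were higher of 53, and BLOC1S3 lower. The share called higher (7.55%) was near the 7.79% of all named genes, and the call of STX3 held under 6 of 18 alternatives. With 1 heat-stressed or NMN-supplemented sample left out 0 to 2 of these 53 were called higher and 1 to 5 lower. RRM2B, a ribonucleotide reductase subunit, was higher (0.43 ± 0.12 (SE)) and NME3, a nucleoside diphosphate kinase, lower (-0.96 ± 0.25 (SE)). In the dialogue with cumulus cells, the activin receptor ACVR2B was higher (0.51 ± 0.16 (SE)) and the connexin GJA10 lower (-0.77 ± 0.27 (SE)), of 16 tested.

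The study followed 4 genes by RT-PCR, relative to GAPDH. PLK3 and MED25 were called higher, as given above. CSNK2B, a regulatory subunit of casein kinase 2, was at 1.53 and 3.55 FPKM in heat-stressed and 4.27 and 4.39 FPKM in NMN-supplemented oocytes, a log2 difference of 0.65 ± 0.34 (SE) that was not called. KDM6B, a histone demethylase, had a difference of 0.41 ± 0.17 (SE) and missed the threshold as well. GAPDH was far below the minimum and was not tested.

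The genes called in the 2 directions also differed in the build of their transcripts, which the calls did not use. Over named protein-coding genes the median transcript length was 4200 bases for the 297 called higher, 2158.5 for the 218 called lower and 3148 for all 3820 tested. The median 3′UTR length was 1511 bases for genes called higher and 558.5 for genes called lower, and the median number of exons was 12 and 4. Transcripts under 2000 bases made up 46.3% of the genes called lower and 11.8% of those called higher, against 25.7% of all. Genes called lower were also richer in GC, with a median of 55.21%, whereas genes called higher had the same median as all tested (47.93%). Over the lists, the median length was 2270 bases for maternal transcripts and 845 for cytosolic ribosomal proteins, against 4007 for the nuclear pore and RNA export. FPKM is normalized to length within a sample, and the part of library preparation in the relation to length was not tested.

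The cytoplasmic polyadenylation element was then looked for in the last 100 bases of each transcript, on the transcript strand, as TTTTAT or TTTTAAT. The second form can share its last bases with the hexamer ATTAAA. This search was chosen after values had been seen and is given as a description, without a test. Of 3633 named genes with a 3′UTR of at least 100 bases 944 held the element (26.0%), against 2990 of the 17407 annotated protein-coding genes in the table (17.2%). It was present in 120 of the 286 genes called higher (42.0%) and in 14 of the 198 called lower (7.07%). The hexamer AATAAA or ATTAAA was found in 89.5% and 78.3% of these and in 83.8% of all. Read the other way, 12.7% of genes with the element were called higher and 1.48% lower, whereas 6.17% of genes without it were called higher and 6.84% lower. The median log2 difference was 0.163 with the element and 0.0699 without it. For each of the 4 pairs of an NMN-supplemented and a heat-stressed sample the median was higher with the element, at 0.136 to 0.190 against 0.0498 to 0.0944.

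Since the genes called in the 2 directions differed in length and GC content, the shares were also taken within quartiles of each. In the quartile richest in GC 18.3% of genes with the element were called higher and 2.13% lower, against 5.51% higher and 12.8% lower without it. In the poorest quartile the shares called lower did not separate (1.63% with and 1.5% without) and those called higher were close (8.98% and 7.22%). Among the shortest transcripts 4.82% with the element were called higher and 3.07% lower, against 2.93% and 12.2% without it, and among the longest 18.1% and 1.69% against 9.99% and 2.53%. With windows of 50 and 200 bases, chosen after the data had been seen, the element was in 24.8% and 56.4% of genes called higher and in 4.04% and 10.5% of those called lower. Over all named genes tested the shares were 14.2% and 39.0%. Of the genes named above, NUP214, JAGN1 and SLC43A3 held it and were called higher, while YBX2, EEF1A1 and PHB2 held it and were called lower. Tail length and protein were not measured in these samples, and a match of letters is not a site in use.

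**Figure D5:**
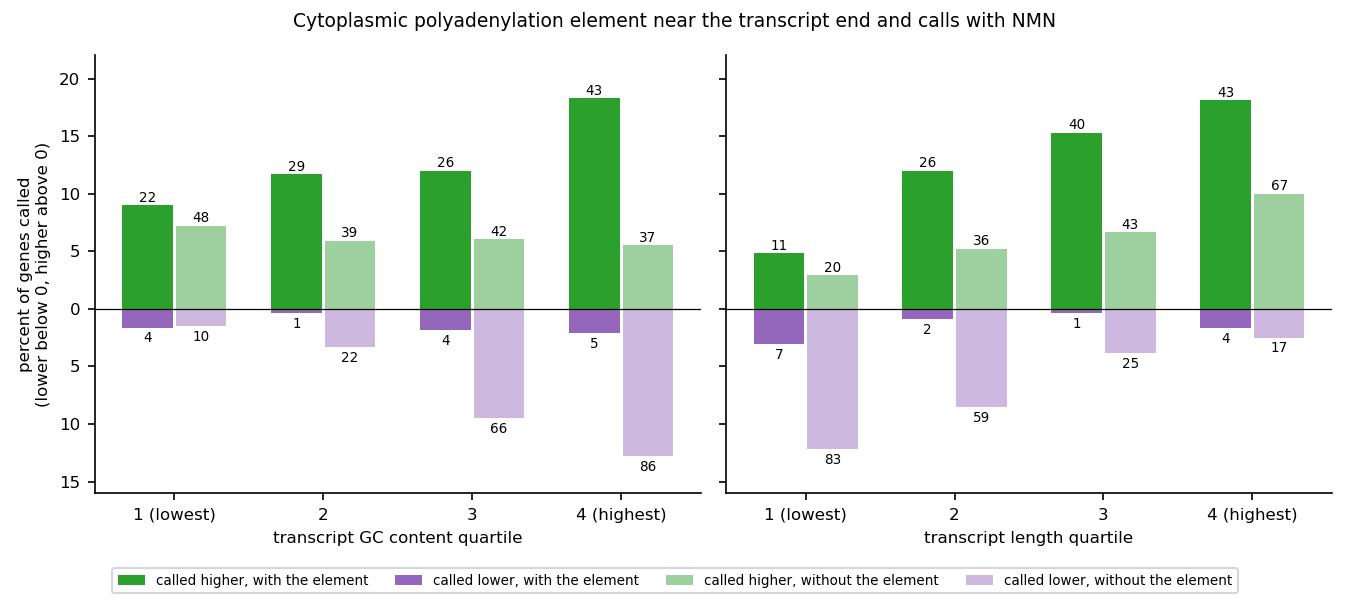
Bars above 0 give the percent of genes called higher with NMN and bars below 0 the percent called lower, for genes with (dark) and without (light) a cytoplasmic polyadenylation element in the last 100 bases, with the number of genes called at each bar. Genes are split by quartiles of transcript GC content on the left and of transcript length on the right. The share called higher is larger with the element in every quartile, and the share called lower is smaller in each except the quartile poorest in GC.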

How the data were processed

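RNA of 6 pools of porcine oocytes was sequenced, and the samples were assigned to 3 groups of 2 from their labels. Reads were trimmed (cutadapt) and aligned to susScr11 (tophat2) per the methods, and the submitters' processing notes name Cufflinks 2.2.1, Cuffnorm and Cuffdiff. The authors deposited FPKM per gene and sample. Their log2 fold changes, P-values and group values for each comparison were not used. The depth per sample is unknown, since no counts were used here, so no interval of counting error is given, and whether strand was kept is not given in the sources used here.

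Values were taken as log2(FPKM + 1). Genes with a mean of at least 1 FPKM over the 6 samples were fitted with limma 3.58.1 in R 4.3.3, as a model of the 3 groups with empirical Bayes moderation and a trend on mean expression. Adjusted P-values are those of Benjamini and Hochberg. All 6 samples entered the fit, since 2 per group leave few degrees of freedom. The fit was tested on simulated data. SE is the moderated standard error of the log2 difference. Transcripts, lengths and motifs were read from the RefSeq annotation and genome of Sscrofa11.1, the build that susScr11 names, with Python 3.11.15, pandas 2.3.3 and matplotlib 3.10.9.

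The members and gene lists were chosen with earlier results of these data known. Genes named were the 12 with the largest called difference in each direction, the 3 with the smallest P among the called genes of each list, and the genes of the RT-PCR. Symbols that begin with LOC were left out of the lists. Other called members of a list were named after their values were seen. Alternatives were other pseudocounts, minimum levels, normalizations and moderations, the replicate number as a block, and each sample left out in turn.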

Additional observations from a re-analysis of the deposited data

How the results depend on the processing

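As reported above, 641 genes were called, 337 higher and 304 lower with NMN (52.6% higher). The minimum level set how many genes were tested and called, with 1161 calls (657 lower) at a mean of 0.1 FPKM, 266 (159 higher and 107 lower) at 5 FPKM and 1557 (675 higher and 882 lower) without a filter. An absolute log2 difference over 1 was reached by 71 called genes, 9 higher and 62 lower, and an adjusted P under 0.05 in limma by 0 genes, 0 higher and 0 lower, while 641 had an unadjusted P under 0.05. Quantile normalization gave 218 higher and 310 lower (41.3% higher). Scaling to 1 sum of FPKM without mitochondrial genes moved the median log2 difference of all genes from 0.0783 to 0.354 and left 218 calls, 157 higher and 61 lower (72.0% higher), and 4 lists with more lower than higher calls. With LOC100513953 left out of that sum as well, an alternative chosen after seeing the data, the median was 0.12 with 257 higher and 263 lower. With the replicate number as a block 208 were called higher and 305 lower (40.5% higher). The numbers were not taken to pair the samples, as no source says so and the deviations of same-numbered heat-stressed and NMN-supplemented samples correlated at 0.00805. With 1 sample left out, the lone sample of its group being assumed to vary like the others, 327 to 701 genes were called, 89 to 384 higher and 238 to 363 lower, and 13 to 17 lists had more lower than higher calls. The lowest count was that without NMN-supplemented sample 1 (327), followed by NMN-supplemented sample 2 (383) and heat-stressed sample 1 (418).

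None of the 107 called genes chosen for naming reversed under any alternative. Under all alternatives other than samples left out 33 kept their call, and 69 of the 107 lost it under the scaling to 1 sum. Of 611 medians of gene lists under alternatives 121 moved by more than the spread between samples, and the list of NAD-consuming enzymes had no gene left at 5 FPKM. The share of genes called higher with the polyadenylation element ranged from 32.0% to 47.6% and that of genes called lower from 2.86% to 13%. In the main fit 26.0% of all named genes tested held it. With unknown depth, a difference in genes below the minimum was not detectable here.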
